A study of Mus musculus with 115 samples.

Results

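Testosterone given to gonadectomised mice without Sry changed 929 of 10167 tested array probes in liver. Of 34 probes of genes known as male-biased in mouse liver 31 rose, against 3.39% of all tested probes. Of 34 probes of genes known as female-biased 27 fell, several of them to background, against 5.74% of all tested probes. Both lists were chosen with earlier results of these data known, so their direction is not independent evidence. The arrays described here are the 20 liver arrays labelled XX or XY- with a testosterone (T) or a blank (B) capsule, chosen by their titles, out of 115 arrays in the series. The mice belong to the FCG model, which separates gonad type from sex chromosomes, on a C57BL/6J background (strain B6.Cg-TgSry2Ei Srydl1Rlb/ArnoJ). In this model the Y chromosome written XY- has lost Sry, the gene that starts testis development, and an autosomal Sry transgene is inherited separately. Neither XX nor XY- mice carry that transgene, so both form ovaries. All mice of the 4 groups lost their gonads at 75 days of age and received a Silastic capsule at once, which held adhesive alone in the blank groups and 5 mM testosterone in the treated groups, a dose that the labels place high in the physiological range. Livers were collected 3 weeks later. Each group, XX B, XX T, XY- B and XY- T, holds 5 arrays, so each arm holds 10. Gonad removal is shared by all 4 groups, so the blank arm is a liver without gonadal hormones and not that of an intact female. No animal numbers are in the labels, and p-values therefore measure the spread between these arrays.

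As background, androgens act on liver both directly and indirectly through the pituitary. In male rodents growth hormone is released in pulses, and in females more evenly. The hepatocyte reads this pattern through the growth hormone receptor, the kinase Jak2 and the transcription factor Stat5b, and the repressors Bcl6 and Cux2 are known to favour the male and the female pattern respectively. Many of the genes that differ between the sexes in mouse liver encode cytochromes P450, sulfotransferases, steroid dehydrogenases and urinary proteins.

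The median deposited intensity of the 20 arrays ranged from 126.8 to 157.5, and the share of the 25697 probes detected (detection p under 0.01) from 32.5% to 41.0%. After background correction and quantile normalisation, 10167 probes with 7655 symbols were detected in at least 5 of the 20 arrays and were tested. Correlations between arrays of a group lay between 0.947 and 0.983, and no pair was identical. The X-linked Xist probes and the Y-linked Eif2s3y probe separated the arrays labelled XX from those labelled XY- with no overlap. The array XY- B 1 stood apart in immune transcripts. Its mean level over the 33 acute phase probes was 11.20, against 10.38 to 10.82 in the other 9 blank arrays, and its probe for the neutrophil marker S100a8 read 10.71, against 6.10 to 7.24. Counts of the acute phase, complement, interferon and MHC, and Kupffer lists are therefore given with and without it. The 20 arrays lie on 7 slides, of which 3 (slides 2, 5 and 8) hold 1 array of each group, 2 hold only blank and 2 only testosterone arrays. The first principal component of the tested probes held 27.3% of their variance. On it the slide 8 blank arrays XY- B 5 and XX B 5 read 3.75 and 6.27. The other blank arrays read -35.47 to -10.13, and the testosterone arrays -0.13 to 32.89. The highest correlation of any 2 arrays, 0.987, joined arrays of different groups. With slide as a random block, the estimated correlation within a slide was 0.30.

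Which liver transcripts respond to testosterone was tested with limma as the mean of the testosterone minus blank difference in XX and in XY-, with Benjamini-Hochberg adjustment over all tested probes. At an adjusted p under 0.05, 929 of 10167 probes (9.14%) were called, 345 higher (3.39%) and 584 lower (5.74%) with testosterone. They carry 819 symbols. A difference of 2-fold or more was reached by 148 called probes (1.46%). The arms did not overlap for 59 probes that lay above the blank arm in all 10 arrays (0.58%) and for 76 that lay below it (0.748%), and all 135 of these were called. Of the 929 called probes, 928 had the same sign in XX and in XY-, and 893 (96.1%) had the same sign within each of the 3 slides that hold all 4 groups. The probes were called on the mean of both genotypes over these same arrays, which favours equal signs, so these counts are a description. With slide as a fixed block 832 probes were called, and 621 of them were among the 929. The median difference over all tested probes was 0.01 on the log2 scale. Under median centring in place of quantile normalisation it was -0.14, and the called probes then split into 92 higher and 633 lower, so counts of direction are relative to the typical probe of each scaling.

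Steroid and fatty acid enzymes were among the 15 largest fitted increases. Levels below are log2 normalised intensities of 1 probe per gene, given as the lowest, median and highest of the 10 arrays of an arm, and differences are log2 values of testosterone minus blank with the standard error of the fit. Hsd3b5, a hydroxysteroid dehydrogenase of male mouse liver, read 4.83, 5.38 and 7.07 in the blank arm and 12.18, 12.35 and 12.74 with testosterone. Every testosterone array lay far above every blank array, and the difference was 6.65 (SE 0.26, adjusted p = 6.13e-15, limma). Hsd3b5 was detected in all 10 testosterone arrays and in 5 of the blank arrays. Cyp4a12, a fatty acid hydroxylase, read 4.60, 4.94 and 5.66 in the blank arm and 10.78, 11.43 and 12.07 with testosterone, a difference of 6.44 (SE 0.15, adjusted p = 3.82e-19). The arms again did not overlap, and 1 blank array detected the probe. Its name does not tell apart the copies of this gene, so the signal may be shared between them. Cyp2d9, a testosterone hydroxylase, was measured in all 20 arrays, from 6.83 to 9.59 (median 8.03) in the blank arm and from 12.18 to 13.55 (median 12.80) with testosterone. The difference was 4.77 (SE 0.29, adjusted p = 2.78e-11).

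**Figure D1:**
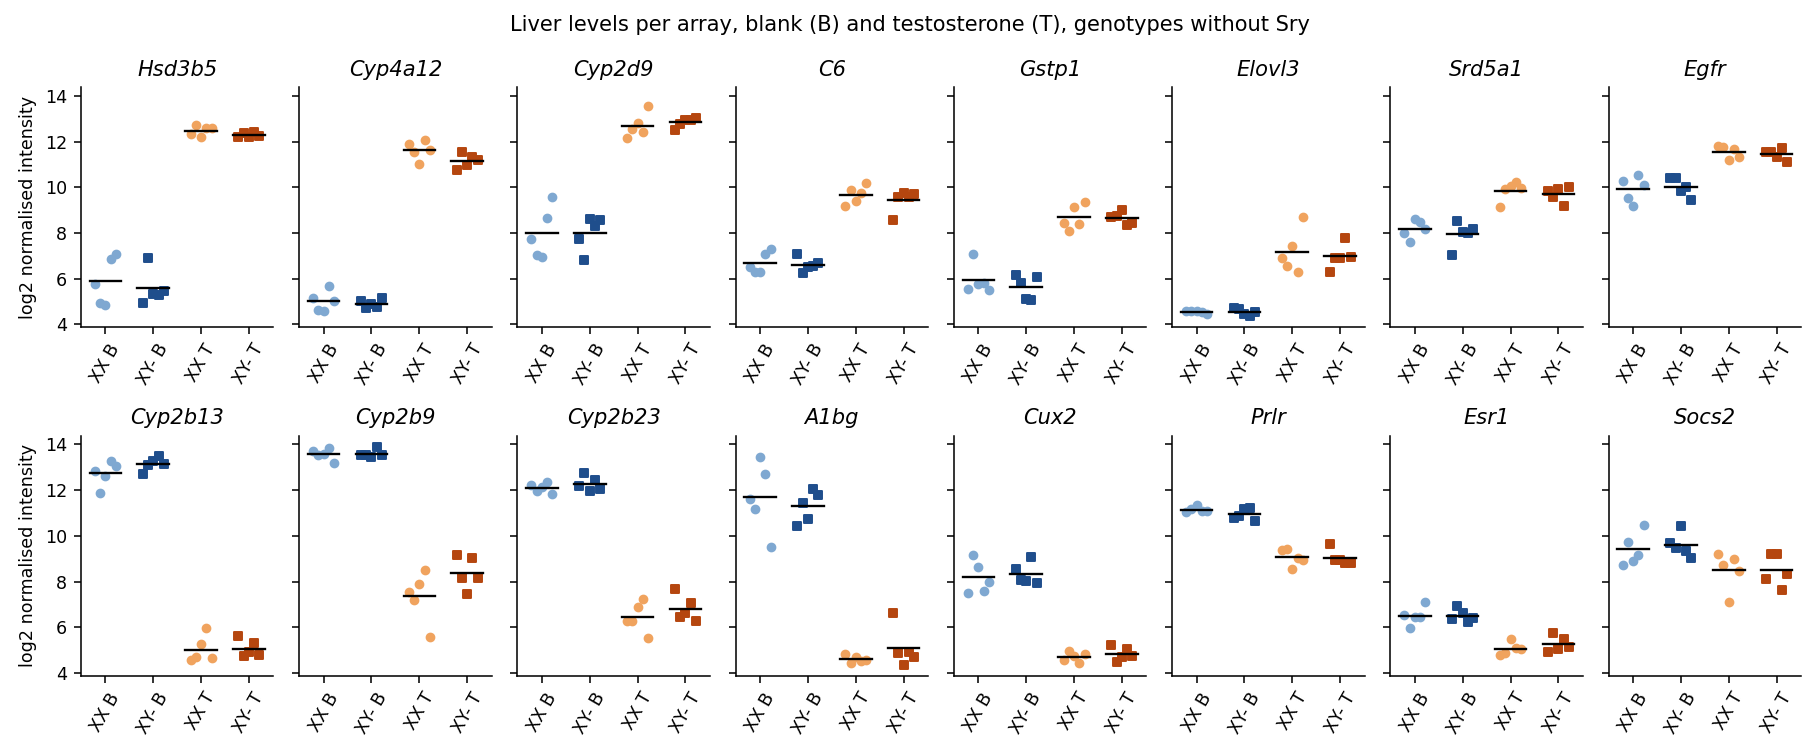
Log2 normalised intensity (vertical axis, same scale in all panels) of 16 genes in each of the 20 arrays, by group, with 1 point per array and a bar at the group mean (n = 5 arrays). Points of XX and XY- lie at similar heights within an arm; Hsd3b5 lies between 4.83 and 7.07 in blank arrays and between 12.18 and 12.74 in testosterone arrays, while Cyp2b13 goes from 11.89 to 13.48 down to 4.55 to 5.97.

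The other large increases included secreted and detoxifying proteins. The largest fitted value of all increases, 6.98 (SE 0.31, adjusted p = 7.61e-14), belonged to the transcript listed as MGC25972, which read 4.68, 6.39 and 8.21 in the blank arm and 12.55, 13.13 and 13.64 with testosterone. The transcript listed as OTTMUSG00000000231 rose by 3.37 (SE 0.11), from 9.55, 9.90 and 10.54 to 13.07, 13.33 and 13.68. The complement factor C6 rose by 2.91 (SE 0.18), from a median of 6.53 to 9.64. The glutathione transferase Gstp1 rose by 2.88 (SE 0.21), from 5.78 to 8.57, on its probe with the largest difference. Neither of these probes overlapped between arms. The other Gstp1 probes were far brighter, with mean blank levels of 11.73 and 13.67, and rose by 2.26 and 1.09. Susd4, a sushi domain protein, rose by 2.77, the antitrypsin gene Serpina1e by 2.66, the acetyltransferase Nat8 by 2.27, Selenbp2 by 2.16, Ttc39c by 2.14 and Gm4956 by 2.12. All of these separated the arms completely.

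For a probe that no array of an arm detected, only a bound can be given, which sets the mean of the bright arm against the lowest detected signal of each array of the dim arm. Elovl3, an elongase of very long chain fatty acids, was not well above background in any blank array (4.35 to 4.71) and read 6.31, 6.90 and 8.71 with testosterone, at least 2.97-fold higher (fitted difference 2.53, SE 0.22). Serpina4-ps1, a serpin pseudogene, was likewise not well above background in the blank arm (4.41 to 5.37), and 9 of 10 testosterone arrays detected it, at least 4.08-fold higher. The exception, XY- T 1, read 4.98, so that its arms overlapped.

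The 15 largest decreases included cytochromes, a sulfotransferase and acyl-CoA enzymes. Cyp2b13, a cytochrome P450 of female mouse liver, read 11.89, 13.08 and 13.48 in the blank arm and 4.55, 4.84 and 5.97 with testosterone. Only 1 testosterone array detected it, no array overlapped, and the fitted difference was -7.90 (SE 0.19, adjusted p = 5.15e-19). Cyp2b9, its close paralog, went from 13.19, 13.55 and 13.90 to 5.56, 8.03 and 9.15 and stayed detected in all 10 testosterone arrays, with a difference of -5.71 (SE 0.26). Cyp2b23, which the array table lists as EG243881, went from 11.83, 12.16 and 12.75 to 5.54, 6.53 and 7.66, a difference of -5.56 (SE 0.19). The family members are close in sequence, so a probe may hold signal of more than 1 of them. That was not tested.

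A1bg, which encodes a plasma glycoprotein, ranged widely among blank arrays, with 9.51, 11.52 and 13.45 as lowest, median and highest. With testosterone 9 of 10 arrays were not well above background and XY- T 1 read 6.62. The difference was -6.64 (SE 0.36, adjusted p = 5.11e-12). Cux2, the homeobox repressor, was at least 6.47-fold lower, from 7.52, 8.05 and 9.17 to background (4.45 to 5.21) in all 10 arrays. The sulfotransferase Sult3a1 was at least 3.99-fold lower (blank 6.59, 7.55 and 8.47), Cyp3a41a at least 3.64-fold (blank 6.46, 7.43 and 8.64), the enoyl-CoA isomerase Eci3 at least 4.14-fold and 5730410E15Rik at least 2.81-fold. In each of these 5 genes every blank array and no testosterone array was above background.

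Acot3, a peroxisomal acyl-CoA thioesterase detected in 9 of 10 testosterone arrays, went from 11.21, 11.98 and 12.66 to 5.30, 7.62 and 9.03. Its difference was -4.39 (SE 0.38, adjusted p = 1.88e-08), and the spread among testosterone arrays was wide. BC014805 differed by -3.44 (SE 0.18), with 1 testosterone array detecting it. Nt5e, the ecto-nucleotidase CD73, differed by -2.39 (SE 0.17), and Hamp2, a paralog of the iron regulator hepcidin, by -2.24 (SE 0.16), from 13.55, 13.97 and 14.22 to 10.86, 11.62 and 12.45. Cyp17a1, the enzyme that makes androgen precursors from progestins, differed by -2.43 (SE 0.25, adjusted p = 2.83e-07) and overlapped between arms at 1 edge, with blank arrays at 8.85 to 10.85 and testosterone arrays at 6.80 to 8.91. Of the 30 genes with the largest increases and decreases, 28 had arms that did not overlap, and all 30 kept their sign within slides 2, 5 and 8. All 30 were called with slide as a fixed block (highest adjusted p 0.0023, limma). The 30 were picked by size among called probes on these same arrays, which favours such outcomes, so these counts are a description.

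The sequences just upstream of a few of these genes are shown because some genes that changed lie side by side in the genome or share a motif. They are the 250 bases before the gene start in RefSeq (GRCm38.p6), 5′ to 3′ on the strand of the gene, found by symbol. Of the genes that changed by 2-fold or more, 118 were in the ordered gene table, and 21 of them formed 9 runs within 3 protein-coding positions of each other. Of these runs 7 moved in 1 direction, and 2, Tsc22d1 with Lacc1 and Nox4 with Ctsc, moved in both. Runs among all tested genes were not counted. Several runs hold related genes, whose probes may share signal, which was not tested. On chromosome 7 Cyp2b10, Cyp2b13 and Cyp2b9 all fell, and so did Cyp2b23, Cyp2g1 and Cyp2a5. On chromosome 12 Acot4 and Acot3 fell and Serpina1e and Serpina12 rose, on chromosome 3 Hsd3b4, Hsd3b5 and Hsd3b2 rose and Gbp2b and Gbp2 fell, and on chromosome 4 C8b and C8a rose. The upstream windows of Cyp2b13 and Cyp2b9 had the same base at 248 of 250 positions (99.2%), and capitals mark the 2 positions that differ, at 203 and 147 bases before the start.
Cyp2b13 (chr7:26061245-26061494, plus strand): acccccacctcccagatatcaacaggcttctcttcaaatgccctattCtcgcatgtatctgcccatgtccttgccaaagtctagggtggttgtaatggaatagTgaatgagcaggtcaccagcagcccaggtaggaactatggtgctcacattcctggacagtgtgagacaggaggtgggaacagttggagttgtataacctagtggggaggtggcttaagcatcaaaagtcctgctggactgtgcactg
Cyp2b9 (chr7:26173159-26173408, plus strand): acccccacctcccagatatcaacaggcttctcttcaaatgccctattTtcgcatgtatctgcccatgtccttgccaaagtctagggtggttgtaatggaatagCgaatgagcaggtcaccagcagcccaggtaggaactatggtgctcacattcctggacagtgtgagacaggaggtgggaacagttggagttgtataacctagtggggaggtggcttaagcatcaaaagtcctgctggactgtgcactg
The pair thus fell with nearly the same upstream sequence, Cyp2b13 to background in 9 of 10 testosterone arrays and Cyp2b9 to a level that all 10 arrays detected.

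Windows were searched for the 9-base STAT5-type motif TTCNNNGAA, where N is any base. Its reverse complement is the same string, so 1 search covers both strands. It was present in 1940 of 27025 windows of all genes (7.18%) and in 354 of 5979 windows of tested genes (5.92%). Among all called genes, 20 of 220 windows of higher genes (9.09%) and 28 of 395 windows of lower genes (7.09%) held it. Among genes called 2-fold or more, 5 of 35 windows of higher genes (14.3%) and 5 of 57 windows of lower genes (8.77%) held it. Those were Arsa, C8a, Nox4, Sdr9c7 and Tsc22d1 among the higher genes, and A1bg, Ctsc, Hamp2, Igtp and Sult3a1 among the lower ones. The counts are small and were not tested. Capitals mark the match in 3 genes that fell and 1 that rose.
A1bg (chr15:60921271-60921520, minus strand): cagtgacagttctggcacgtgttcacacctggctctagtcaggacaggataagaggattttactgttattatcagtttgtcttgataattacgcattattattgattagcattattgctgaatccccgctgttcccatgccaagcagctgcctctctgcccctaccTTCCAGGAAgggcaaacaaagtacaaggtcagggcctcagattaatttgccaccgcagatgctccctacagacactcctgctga
Sult3a1 (chr10:33857472-33857721, plus strand): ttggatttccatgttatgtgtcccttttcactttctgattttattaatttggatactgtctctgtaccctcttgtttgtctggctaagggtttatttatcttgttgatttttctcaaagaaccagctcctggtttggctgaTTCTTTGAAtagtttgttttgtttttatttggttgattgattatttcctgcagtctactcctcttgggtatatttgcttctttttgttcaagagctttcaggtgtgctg
Hamp2 (chr7:30924182-30924431, minus strand): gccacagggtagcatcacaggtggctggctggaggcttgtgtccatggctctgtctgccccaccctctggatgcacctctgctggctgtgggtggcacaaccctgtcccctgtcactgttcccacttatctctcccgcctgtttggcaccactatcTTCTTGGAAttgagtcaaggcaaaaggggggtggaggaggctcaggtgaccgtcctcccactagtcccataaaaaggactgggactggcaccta
C8a (chr4:104876399-104876648, minus strand): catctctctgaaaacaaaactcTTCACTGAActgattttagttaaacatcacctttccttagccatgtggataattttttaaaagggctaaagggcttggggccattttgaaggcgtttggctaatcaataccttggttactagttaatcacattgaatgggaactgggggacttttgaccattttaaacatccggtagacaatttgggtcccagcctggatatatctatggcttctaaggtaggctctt
The match lies 84 to 76 bases before the start of A1bg, 109 to 101 before that of Sult3a1, 94 to 86 before that of Hamp2 and 228 to 220 before that of C8a.

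The full palindrome of the androgen response element, with 3 free bases in its centre, occurred in 1 of the 27025 windows, that of Acnat2, a peroxisomal acyltransferase gene that the array table lists as C730036D15Rik. Acnat2 is outside the rule for named genes and was picked after its values were seen. Its difference was -2.06 (SE 0.23, adjusted p = 1.19e-06, limma), -2.45 in XX and -1.67 in XY-. The match lies 102 to 88 bases before the start and is in capitals.
Acnat2 (chr4:49408152-49408401, minus strand): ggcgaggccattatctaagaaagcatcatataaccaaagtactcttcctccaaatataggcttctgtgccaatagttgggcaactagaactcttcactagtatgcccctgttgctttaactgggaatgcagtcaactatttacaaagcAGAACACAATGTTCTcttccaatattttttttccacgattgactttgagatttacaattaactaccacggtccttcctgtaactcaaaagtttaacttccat
The oestrogen response palindrome was in 17 windows of all genes and in none of the 5979 tested ones. The HNF4-type motif CAAAGTCCA, searched on both strands, was in 103 (0.381%) and 26 (0.435%). It was in 2 of 220 called higher (0.909%) and 4 of 395 called lower windows (1.01%). Among genes changed 2-fold or more it was in 0 of 35 higher and 2 of 57 lower windows (3.51%). These counts were not tested. A match is a string of letters, and no binding was measured.

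Whether the response depends on the sex chromosomes was asked in 2 ways. The interaction, the testosterone response in XX minus that in XY-, was called for 0 of 10167 probes by limma (0%). In it 281 probes had an unadjusted p under 0.05, fewer than chance alone gives, and the smallest adjusted p was 0.9997. That fit has no slide term, although the XX and XY- arrays of an arm share slides. With slide as a fixed or random block 581 and 585 probes had an unadjusted p under 0.05 in limma, and again 0 were called. When each genotype was tested alone, 313 probes (3.08%) were called in XX, 121 higher (1.19%) and 192 lower (1.89%), and 293 (2.88%) in XY-, 114 higher (1.12%) and 179 lower (1.76%). The genotypes share no array, so calls of one can be looked up in the other, but within an arm the XX and XY- arrays lie on the same slides. Slides 1 and 3 hold only blank and slides 4 and 6 only testosterone arrays, so a slide effect enters both genotypes alike and the lookups are not independent of slide. Of the 313 XX calls, 306 (97.8%) had the same sign in XY- and 173 (55.3%) were also called there. Of the 293 XY- calls, 286 (97.6%) had the same sign in XX and 173 (59.0%) were called. The XX calls that rose had a median difference of 1.10 in XX and 0.85 in XY-, and those that fell -0.97 and -0.72. The probes that rose in XY- had 1.06 there and 0.96 in XX, and those that fell -1.02 and -0.78. Differences were thus smaller in the genotype that had not chosen the probes, in both directions of the lookup. Over all tested probes the XX and XY- differences had a Pearson correlation of 0.75, which is across probes that share arrays.

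**Figure D2:**
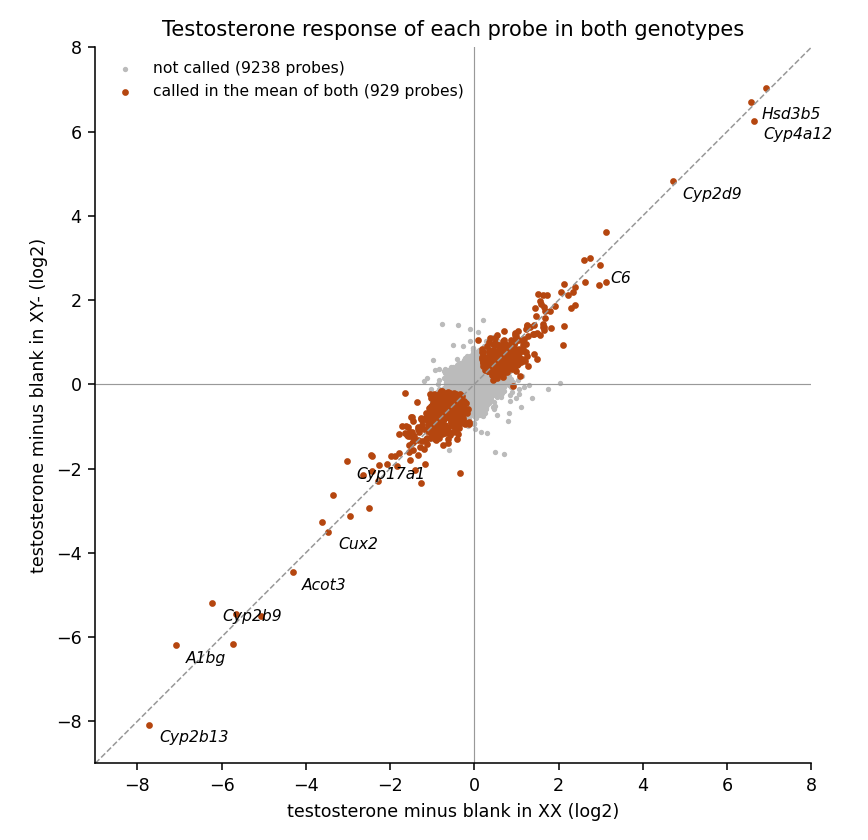
Testosterone minus blank difference (log2) of each of 10167 tested probes in XX (horizontal axis) and XY- (vertical axis), with called probes in colour and the line of equality dashed. Of the 929 called probes, 928 have the same sign on both axes, as the choice on their mean favours; of the genes named in the plot, Cyp17a1 has -3.03 in XX and -1.83 in XY-.

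For the large responses the genotypes were close. Hsd3b5 differed by 6.58 in XX and 6.71 in XY-, Cyp4a12 by 6.63 and 6.25, Cyp2b13 by -7.72 and -8.08 and Cux2 by -3.47 and -3.50. Wider gaps were seen for Cyp17a1, with -3.03 in XX and -1.83 in XY-, and for Cyp2b9, with -6.22 and -5.21, neither of which was called for the interaction. The SH2 protein gene Cish and the repressor gene Bcl6 pointed in opposite directions. Cish differed by 0.71 (SE 0.55) in XX and -1.65 (SE 0.55) in XY-, and Bcl6 by -0.39 (SE 0.48) and 1.40 (SE 0.48). Their interactions had unadjusted p-values of 0.0061 and 0.015 and an adjusted p of 0.9997 each in limma without a slide term. Neither passed the test, and single arrays ran against their group. The array XY- T 3, for example, read 10.64 for Cish where the other XY- T arrays read 7.33 to 8.47.

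Genes known to differ between the sexes in intact mice were taken as lists, chosen with earlier results of these data known, so their direction is not independent evidence. Some genes have more than 1 probe, and the counts of these and the later lists are of probes. The lists overlap, so a probe can be counted in more than 1 of them. Of 34 tested probes of 25 male-biased liver genes, 31 rose and none fell, against 3.39% of all probes that rose. Their median difference was 1.6, against 0.01 over all tested probes. The 3 that did not pass were probes for Cyp2f2 (0.06), Lifr (0.19) and Mup3 (0.26). In 25 of the 34 probes every testosterone array lay above every blank array, against 0.58% of all tested probes. Of 34 tested probes of 30 female-biased liver genes, 27 fell, 1 rose and 6 did not pass, against 5.74% of all probes that fell. The median was -1.65. The one that rose was the alcohol dehydrogenase gene Adh4 (0.69), and under median centring no probe of this list was called higher. The 6 others were Cd36, Cyp4a14, Fmo2, Cyp39a1, Igfbp1 and Lpin1, between -0.34 and 0.23. The mean level over the male-biased probes lay at 8.60, 8.91 and 9.25 (lowest, median, highest) in blank arrays and at 10.67, 10.86 and 11.14 with testosterone. Over the female-biased probes it lay at 8.73, 9.20 and 9.52 and at 6.79, 7.07 and 7.26. Neither overlapped between arms.

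**Figure D3:**
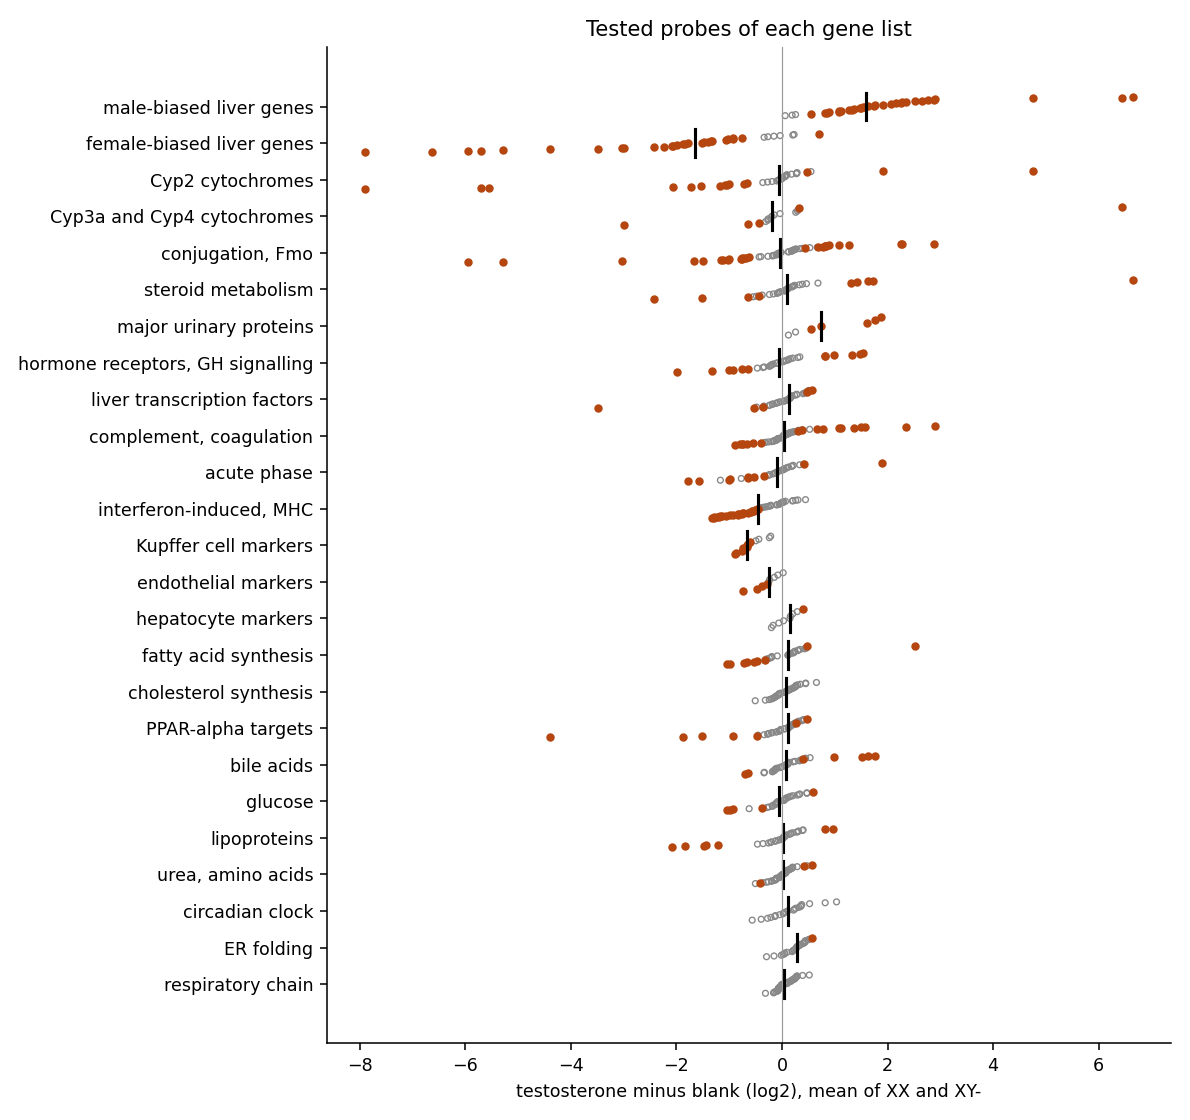
Testosterone minus blank difference (log2, mean of XX and XY-) of every tested probe of 25 gene lists, with filled points for called probes, open points for the others and a bar at the list's median. The male-biased list has its median at 1.6, the female-biased list at -1.65 and the interferon and MHC list at -0.45, while most metabolic lists have medians near 0 with a few probes far out.

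Within the Cyp2 cytochromes the response was selective. Of 36 tested probes 3 rose, 12 fell and 21 did not pass (41.7% called, against 9.14% of all probes), with a median of -0.05. Besides Cyp2d9, Cyp2u1 rose, by 1.92 (SE 0.11), from background in all 10 blank arrays, at least 2.18-fold. Besides the Cyp2b genes described above, Cyp2b10 (listed as Cyp2b20) differed by -2.06 (SE 0.16) and Cyp2g1 by -1.73 and -1.53 on its probes. Cyp2a5, a coumarin hydroxylase, differed by -1.08, -1.01 and -0.67 on 3 called probes and by -0.36 on another that did not pass. Cyp2c39 (-1.17), Cyp2c40 (-1.04) and Cyp2c65 (-0.72) also fell, and Cyp2d10 rose by 0.46. Among 15 probes of the Cyp3a and Cyp4 genes, 2 rose and 3 fell (33.3% called, against 9.14% of all probes). Apart from Cyp4a12 and Cyp3a41a these were small, with Cyp4v3 at 0.32, Cyp3a13 at -0.43 (SE 0.12, adjusted p = 0.027) on 1 of 3 probes and Cyp4f18 at -0.65 (SE 0.19, adjusted p = 0.035). Cyp4f18 was not called with slide as a fixed block (adjusted p = 0.16).

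The enzymes of conjugation and flavin oxidation split. Of 56 probes 12 rose, 15 fell and 29 did not pass (48.2% called, against 9.14% of all probes). Fmo4 (-1.01, SE 0.15) and Fmo1 (-0.76, SE 0.10), flavin monooxygenases, fell, while both probes of Fmo5 rose, by 0.82 and 0.78. The glutathione transferases Mgst3 (-1.49 and -1.12) and Gstm2 (-0.77, -0.75 and -0.68) fell where Gstp1 rose. The glucuronosyltransferase gene Ugt1a2 fell by 1.66 and Ugt2b1 rose by 1.28. Probes of Ugt1a6a disagreed, with 0.83, 0.81 and -0.72, all called, so no direction is given for that gene.

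Of 33 probes of steroid metabolism 5 rose, 4 fell and 24 did not pass (27.3% called, against 9.14% of all probes). The median was 0.09. Srd5a1, the reductase that makes dihydrotestosterone, read 7.02, 8.09 and 8.61 in the blank arm and 9.14, 9.91 and 10.22 with testosterone, a difference of 1.72 (SE 0.18, adjusted p = 4.48e-07, limma). The arms did not overlap. Cyp7b1, an oxysterol and androgen hydroxylase, went from 10.29, 11.10 and 11.71 to 12.29, 12.52 and 13.12, a difference of 1.62 (SE 0.16). Hsd3b2 rose by 1.41 on 1 probe and read 0.33 on another that did not pass, and Hsd3b4 rose by 1.30 from background in every blank array, at least 1.21-fold. Serpina6, the corticosteroid carrier of plasma, differed by -1.51, and Akr1d1, a bile acid and steroid reductase, by -0.64. Major urinary proteins, the pheromone carriers made by liver, rose in 5 of 7 probes, against 3.39% of all probes that rose. Mup5 differed by 1.88 (SE 0.13), Mup4 by 1.77 (SE 0.11), Mup2 by 0.75 (SE 0.11) and Mup1 by 0.56 (SE 0.09), and their arms did not overlap. A second Mup2 probe (0.12) and that of Mup3 (0.26) did not pass. Mup genes are near-identical copies, so the probes cannot be assigned to 1 copy with certainty.

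Receptors and growth hormone signalling were examined by named members. Prlr, the prolactin receptor, read 10.64, 11.09 and 11.36 in the blank arm and 8.55, 8.95 and 9.64 with testosterone, a difference of -1.98 (SE 0.13, adjusted p = 1.30e-10, limma). The arms did not overlap, and a second probe fell by 0.93. Esr1, the oestrogen receptor alpha, differed by -1.33 (SE 0.14, adjusted p = 7.06e-07), and 2 of 10 testosterone arrays detected it against all blank arrays. Egfr, the epidermal growth factor receptor, rose by 1.53 (SE 0.17, adjusted p = 6.32e-07), from 9.18, 10.05 and 10.54 to 11.10, 11.54 and 11.80, and its other 3 probes rose by 0.82 to 1.47.

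Socs2, a feedback inhibitor of growth hormone signalling, differed by -1.0 (SE 0.27, adjusted p = 0.021), which was lost with slide as a fixed block (adjusted p = 0.10). The growth hormone receptor Ghr (0.30, SE 0.19), Jak2 (-0.24, SE 0.16), Stat5a (-0.09, SE 0.14), Cish (-0.47, SE 0.39), Bcl6 (0.51, SE 0.34) and the growth factor Igf1 (-0.36, SE 0.12, adjusted p = 0.060) did not pass. Both probes of Igfbp2, an IGF-binding protein, rose by 0.99 and 0.81, and Igfbp3 differed by -0.65. Over the list, 6 of 32 probes rose and 6 fell, 37.5% called against 9.14% of all probes. The 32 probes stand for 20 genes, and the 6 that rose are all probes of Egfr or Igfbp2. Among 35 probes of liver transcription factors 3 rose and 3 fell, which is 17.1% called. Apart from Cux2 they were Cebpb (0.57), Klf9 (0.50), Foxa3 (0.48), Srebf1 (-0.53) and Nr5a2 (-0.36). With slide as a fixed block only 1 of the 35 probes, that of Cux2, was called.

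Complement and coagulation proteins, which the liver secretes, rose in 11 of 59 probes and fell in 7 (30.5% called, against 9.14% of all probes). The 59 probes stand for 38 genes, and their median was 0.03. Most of the rises lay in the terminal pathway that forms the membrane attack complex. The probes of C6, C8a, C8b and C9 are also counted in the male-biased list. Besides both C6 probes, C9 rose on its 3 probes, by 1.36 (SE 0.15), 1.12 and 1.08, C8b by 1.49 (SE 0.12, from 10.23 to 11.39 in the blank arm and 12.22 to 12.67 with testosterone) and C8a by 1.58 (SE 0.24, adjusted p = 7.19e-05, limma). C8b and C9 separated the arms, and C8a overlapped because XX B 5 read 8.64. The coagulation factor F11 rose on 2 of 3 probes, by 0.78 and 0.67, and Hc, complement C5, by 0.38. Those that fell included the recognition subunits C1qa (-0.65), C1qb (-0.73) and C1qc (-0.89), which macrophages make, and Mbl2 (-0.76), the mannose-binding lectin. Among acute phase genes 2 of 33 probes rose and 8 fell (30.3% called, against 9.14% of all probes). The metallothionein Mt1 differed by -1.79 (SE 0.27, adjusted p = 7.00e-05) and Orm2, an orosomucoid, by -1.58 (SE 0.19), while Serpina3k rose by 1.89 (SE 0.21) with no overlap. Without XY- B 1 the acute phase counts were again 2 and 8, and 10 complement and coagulation probes rose and 7 fell.

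Of 56 tested probes of 37 interferon-induced and MHC genes none rose, 24 fell and 32 did not pass, against 5.74% of all probes that fell. The median was -0.45. The guanylate-binding proteins Gbp2 (8.65, 8.92 and 10.20 in the blank arm, 7.11, 7.83 and 8.27 with testosterone, difference -1.33, SE 0.18, adjusted p = 2.74e-05, limma), Gbp4 (-1.30, SE 0.19) and Gbp2b (-1.23, SE 0.25) fell most. Gbp2 did not overlap between arms, nor did H2-DMa, which helps load peptide on MHC class II, at -1.19 (SE 0.19). All 4 H2-Ab1 probes fell, by 0.81 to 1.05, as did both probes of Cd74, the MHC class II invariant chain, by 0.74 and 0.65, and the chemokine genes Cxcl9 (-1.17) and Cxcl10 (-0.75). The class I genes H2-K1 (-0.05) and B2m (0.01 and 0.20) and the interferon-induced Isg15 (0.03) did not pass. The list's median was -0.60 within slide 2, -0.34 within slide 5 and -0.52 within slide 8, and without XY- B 1 it was -0.44, with 20 probes lower.

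Kupffer cells are the resident macrophages of liver. Of 13 probes of 10 of their marker genes 9 fell and none rose, against 5.74% of all probes that fell, and the median was -0.65. Clec4f, a lectin of Kupffer cells, differed by -0.88 (SE 0.18, adjusted p = 0.0023) on 1 probe and by -0.50 on another that did not pass. Csf1r (-0.75 and -0.64), Adgre1 (-0.74), Cd68 (-0.67) and Vsig4 (-0.60) fell as well. The first Csf1r probe was not called with slide as a fixed block (adjusted p = 0.066). A second Adgre1 probe (-0.44), Marco (-0.24) and Timd4 (-0.21) did not pass. The summed linear level of the 13 probes was 5599, 6587 and 13017 (lowest, median, highest) in blank arrays and 2598, 4074 and 6082 with testosterone. The highest blank sum was that of XY- B 1, and without that array 7 of 12 probes fell, with a median of -0.58. Without the 4 arrays of slide 8, 6 of 11 fell. The median was -0.84 in XX and -0.47 in XY-.

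**Figure D4:**
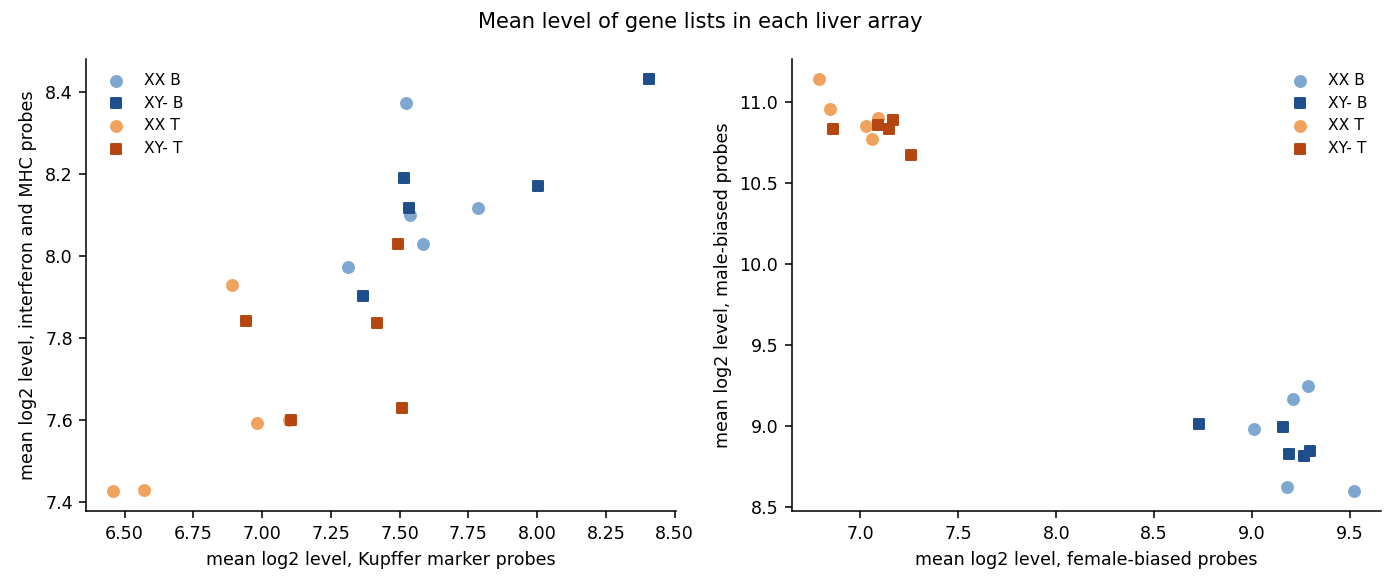
Each point is 1 of the 20 arrays. The left panel sets the mean log2 level of 56 interferon and MHC probes against that of 13 Kupffer marker probes, and the right panel the mean of 34 male-biased against that of 34 female-biased probes; on the right the arms form 2 separate clouds, and on the left they overlap, with XY- B 1 highest on both axes.

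Endothelial markers fell in 4 of 9 probes, against 5.74% of all probes that fell, and rose in none (median -0.25). Those that fell were Cdh5 (-0.74, SE 0.17), Oit3 (-0.47), Clec4g (-0.39) and Pecam1 (-0.29). Pecam1 was not called with slide as a fixed block (adjusted p = 0.11). Their summed level was 7555, 9319 and 10067 in blank arrays and 5749, 6932 and 8080 with testosterone. Of 8 stellate cell and fibroblast probes 1 fell (12.5% called, against 9.14% of all probes), the collagen gene Col3a1 (-0.84, SE 0.14). None of 3 bile duct cell probes was called by limma (median 0.17). Most lymphocyte markers were not detected. The only tested T or NK cell probe, Cd3g (-0.69), and the only tested B cell probe, Cd79b (-0.70), fell, both near background, and S100a8, the only tested neutrophil probe, did not pass (-0.77). Without XY- B 1 the differences of Cd3g, Cd79b and S100a8 were -0.57, -0.74 and -0.42. Of 9 hepatocyte marker probes 1 rose (11.1% called, against 9.14% of all probes), Serpina1a (0.40), and albumin (Alb, -0.20) did not pass. In bulk liver, fewer cells of a type and less RNA per cell cannot be told apart, and the part of these cells in the lower interferon and MHC levels was not tested. No skeletal muscle marker was detected in enough arrays to be tested, the only tested pancreas marker, Cela1, which liver also expresses, rose by 0.96, and Alas2, the haem enzyme of red cells, rose by 1.75 where the globin probes Hba-a1 (-0.50) and Hbb-b1 (0.13) did not pass.

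None of 32 probes of cholesterol synthesis was called by limma, with a median of 0.07. Of 32 fatty acid synthesis probes 2 rose and 7 fell (28.1% called, against 9.14% of all probes), with a median of 0.12, and with slide as a fixed block 2 rose and 4 fell. Elovl3 rose as described and Elovl1 by 0.47 on 1 of 4 probes, and the elongases Elovl6 (-0.71, SE 0.15) and Elovl5 (-0.67, SE 0.11), the liver pyruvate kinase Pklr (-1.04 and -0.98), Acly (-0.47), Srebf1 (-0.53) and Dgat2 (-0.32) fell. Elovl5 separated the arms (13.46 to 13.95 and 12.71 to 13.45), while Elovl6 was not called with slide as a fixed block (adjusted p = 0.055). Of 43 PPAR-alpha target probes 2 rose and 5 fell (16.3%, against 9.14% of all probes), and with slide as a fixed block none rose and 3 fell. Those that fell were the thioesterases Acot3, Acot4 (-1.88, SE 0.15) and Acot1 (-0.46), the peroxisomal transporter Abcd2 (-1.51, SE 0.18) and the kinase Pdk4 (-0.92, SE 0.24). Pdk4 rested on the XX arrays (-1.64, against -0.20 in XY-) and was lost with slide as a fixed block (adjusted p = 0.20). The mitochondrial enzymes of beta-oxidation in the list, such as Acadm (-0.02 and 0.42), Cpt1a (-0.20) and Hadhb (0.05), did not pass.

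Among lipid transport genes, Vldlr, the VLDL receptor, went from 7.82, 8.47 and 8.84 in the blank arm to 5.83, 6.27 and 6.79 with testosterone. Its difference was -2.09 (SE 0.16, adjusted p = 1.46e-09, limma) with no overlap, and its other probes fell by 1.85 and 1.48. The phospholipid transfer protein gene Pltp fell by 1.43 and 1.22, and Sort1, a sorting receptor for lipoproteins, rose by 0.97 and 0.81 on 2 of 3 probes. No apolipoprotein probe was called. In bile acid handling 5 of 36 probes rose and 2 fell (19.4% called, against 9.14% of all probes). The organic anion transporter Slco1a1 rose by 1.76 (SE 0.16), from a level that 2 of 10 blank arrays detected. Cyp8b1, the sterol hydroxylase of cholic acid synthesis, rose by 0.99 (SE 0.22, adjusted p = 0.0048), which slide as a fixed block put just past the threshold (adjusted p = 0.058). Cyp7a1, the rate-limiting enzyme, did not pass (-0.33). Of the Scp2 probes 1 rose, by 1.51 (SE 0.14), and 3 read 0.07 to 0.34 and did not pass, so that only 1 part of that gene's signal changed.

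In glucose metabolism 1 of 32 probes rose and 4 fell, which besides those of Pklr and Pdk4 was that of the ketohexokinase Khk (-0.38). Among 41 probes of the urea cycle and amino acid breakdown, Tdo2 (0.57) and Ahcy (0.42) rose and Gls2 (-0.41) fell, and with slide as a fixed block Tdo2 alone of these 3 was called. No circadian clock probe (21 tested) and no respiratory chain probe (42 tested) was called, 1 of 26 probes of protein folding rose (Sec61b, 0.57), and 1 of 15 cell cycle probes fell (Ccnd1, -0.62, adjusted p = 0.047, limma). With slide as a fixed block these probes of Sec61b and Ccnd1 were not called (adjusted p = 0.097 and 0.15). Against 9.14% of all tested probes, the share called was 15.6% in the glucose list and 7.32% or less in the other lists of this paragraph.

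Whether the response differs from that of mice with Sry was tested as an interaction over 40 arrays, with the XXSry and XY-Sry blank and testosterone groups (5 arrays each) as the other side. Those mice formed testes before gonadectomy. limma called 24 of 10919 probes (0.22%), 17 with a more positive (0.156%) and 7 with a more negative (0.0641%) response with Sry. The 24 probes carry 21 symbols, and the size of the response was smaller with Sry for 18 probes and larger for 6. For several of the leading genes the blank levels lay apart and the testosterone levels close together. Cyp3a41a was detected in all 10 blank arrays without Sry (6.46 to 8.64) and in no array with Sry, blank (4.29 to 4.65) or treated. Sult3a1 was alike, at 6.59 to 8.47 in blank arrays without Sry and at 4.46 to 4.98, never detected, in those with Sry. Their interactions of 2.96 (SE 0.21, adjusted p = 1.13e-12) and 2.89 (SE 0.22, adjusted p = 3.43e-12) thus compare a fall with a signal at background in the blank arm too.

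A1bg read 11.49 ± 1.13 (SD, n = 10) in blank arrays without Sry and 5.77 ± 0.55 (SD, n = 10) with Sry, and 4.85 ± 0.65 and 4.87 ± 0.53 (SD, n = 10 each) with testosterone. Its response was -6.64 without and -0.90 with Sry (interaction 5.74, SE 0.45, adjusted p = 6.83e-12, limma). Cyp2d9 ran the other way, with blank levels of 8.0 without and 10.89 with Sry and testosterone levels of 12.77 and 12.83, so that its rise was 4.77 without and 1.94 with Sry (interaction -2.82, SE 0.35, adjusted p = 2.48e-06). Susd4 (2.77 and 0.82) and MGC25972 (6.98 and 4.81) also rose less with Sry, and Cyp2b13 (-7.90 and -5.64), Cyp17a1 (-2.43 and 0.16) and Nt5e (-2.39 and -1.08) fell less or not at all. The 6 probes with larger responses with Sry included Scara5 (0.20 without, 2.72 with), Obp2a (0.37 and 1.95) and Insig2 (0.65 and 3.16), these 3 not called without Sry. Dct, an enzyme of melanin synthesis, was called in both lines with opposite signs (-1.06 without, 1.66 with), and so was 1 Igfbp2 probe (0.81 and -0.60). The fit gave 21 calls among these 24 without the array labelled XY-Sry T 5, whose Xist and Eif2s3y levels go against its label. It gave 15 calls with all 60 liver arrays in the model, 36 with slide as a fixed and 51 as a random block.

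**Figure D5:**
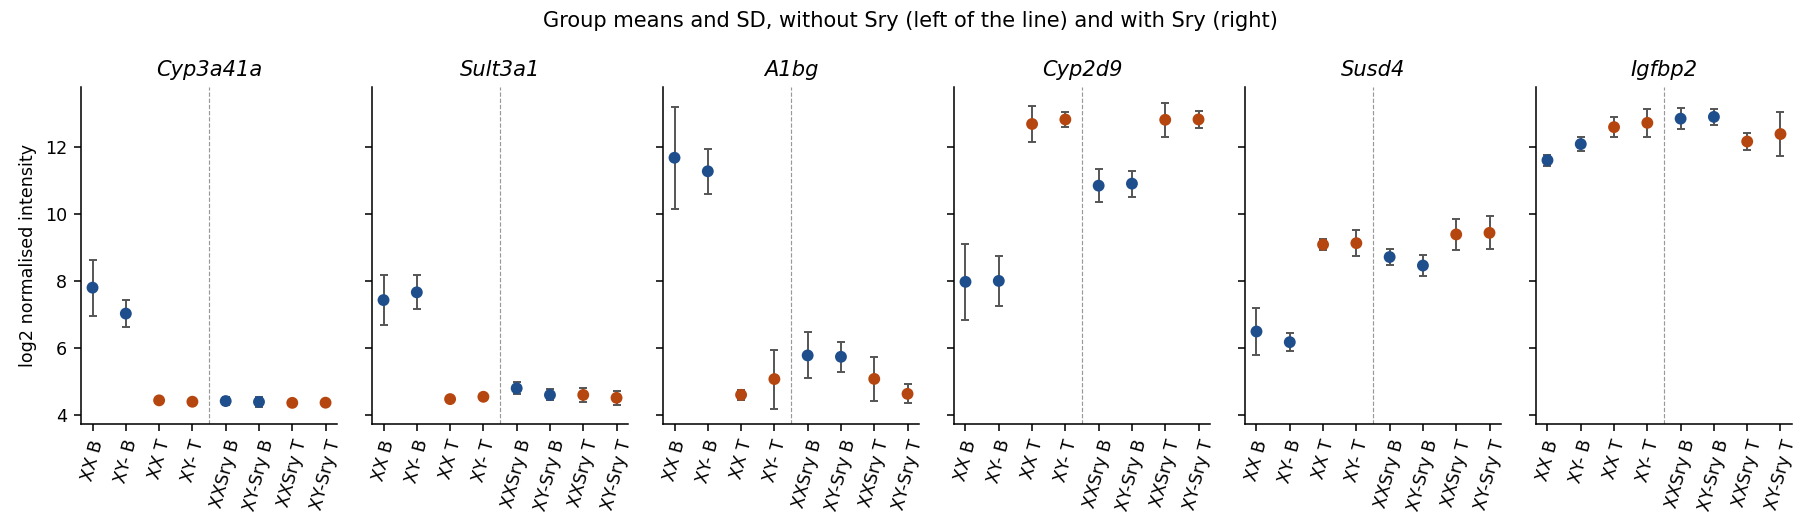
Group means with SD bars (n = 5 arrays per group) of the log2 normalised intensity of 6 genes in blank (blue) and testosterone (orange) groups, without Sry left and with Sry right of the dashed line. For Cyp3a41a and Sult3a1 the arrays with Sry lie at background in both arms, and for A1bg and Cyp2d9 the blank groups differ between the lines while the testosterone groups lie at similar heights.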

How the data were processed

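Liver RNA was measured on Illumina BeadChips, 1 array per sample. The deposited intensity is the mean bead signal of each probe, per the file headers, on a linear scale and not normalised. Its detection p-value, also deposited and per the file headers, tests the signal against background. The submitters' processing notes name lumi, with its role and version not given in the sources used here. Signals of all 60 liver arrays were background corrected from the detection p-values (limma 3.58.1 neqc in R 4.3.3, offset 16), quantile normalised and put on the log2 scale. Probes with a detection p under 0.01 in at least 5 of the 20 arrays were kept. Group means were fitted with limma lmFit and eBayes, with Benjamini-Hochberg adjustment over all tested probes. The interaction with Sry used 40 arrays. The method was checked on simulated data, drawn independently for each array with no slide effect and no difference in response between genotypes. That check does not cover slide effects, background correction or normalisation, or how well an interaction would be found. The number of arrays limits the precision.

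Groups came from the labels. Members and lists were chosen with earlier results of these data known. Named genes are the 15 largest increases and decreases, a fixed set of receptors and growth hormone signalling genes, the 4 largest called genes of each list and the 5 leading interactions. Other genes were named after their values were seen, and some results are not reported here. Symbols were updated through RefSeq (GRCm38.p6), which matched 97.2% of tested probes. Alternatives covered background, normalisation, filters, slide, array weights, which arrays were fitted and each array left out.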

Additional observations from a re-analysis of the deposited data

Results flagged for a closer look

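Among 384 sets of 5 arrays of 1 group and 1 gene, 27 had an array whose gap to the nearest other array took up most of the range of the set. Chance alone gives about 1 in 20 such sets. Values are log2 normalised intensities. Array XX B 1 read 13.03 for Mt1 (others of its group 14.27 to 14.66). Array XX B 2 read 7.06 for Gstp1 (others of its group 5.49 to 5.81). Array XX B 4 read 9.36 for Cela1 (others of its group 8.24 to 8.52), 5.69 for Slco1a1 (others of its group 4.59 to 4.89). Array XX B 5 read 8.64 for C8a (others of its group 6.61 to 7.03), 12.24 for Cebpb (others of its group 10.90 to 11.14), 12.77 for Serpina1a (others of its group 11.82 to 12.06). Array XX T 1 read 9.14 for Srd5a1 (others of its group 9.91 to 10.22). Array XX T 2 read 12.21 for Gls2 (others of its group 12.38 to 12.43). Array XX T 4 read 6.71 for Adgre1 (others of its group 5.60 to 5.91), 6.93 for Gbp2b (others of its group 5.06 to 5.52), 5.00 for Jak2 (others of its group 5.70 to 5.94). Array XX T 5 read 5.15 for Csf1r (others of its group 4.52 to 4.70), 7.68 for Nt5e (others of its group 6.88 to 7.09). Array XY- B 1 read 7.49 for C9 (others of its group 6.11 to 6.49), 7.72 for Gbp2b (others of its group 6.41 to 6.78), 12.79 for Orm2 (others of its group 11.21 to 11.52). Array XY- B 2 read 6.88 for Hsd3b5 (others of its group 4.92 to 5.44), 8.66 for Pklr (others of its group 7.84 to 8.06). Array XY- B 4 read 13.90 for Cyp2b9 (others of its group 13.46 to 13.56). Array XY- B 5 read 10.29 for Cyp7b1 (others of its group 10.99 to 11.24). Array XY- T 1 read 6.62 for A1bg (others of its group 4.36 to 4.92), 8.58 for C6 (others of its group 9.57 to 9.75), 9.64 for Prlr (others of its group 8.82 to 8.95). Array XY- T 5 read 9.98 for Ahcy (others of its group 9.67 to 9.71), 12.80 for Khk (others of its group 13.12 to 13.21), 13.63 for Mt1 (others of its group 11.84 to 12.28).

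The response to testosterone differed with Sry for 4 of the leading genes, tested as an interaction in limma. The response with Sry minus that without was 2.96 for Cyp3a41a, 2.89 for Sult3a1, 5.74 for A1bg and -2.82 for Cyp2d9. In blank arrays, Cyp3a41a, Sult3a1 and A1bg were lower and Cyp2d9 was higher with Sry.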

How the results depend on the processing

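No paired analysis was possible because the labels carry no replicate numbers, and slide was used as a block instead. The 929 testosterone calls became 832 with slide as a fixed block and 1239 as a random block, 725 under median centring, 759 on the 3 shared slides and 1265 with array weights. Leaving out 1 array gave 751 (without XY- T 5) to 1119 (without XX B 5). In XX alone, 552 probes were called with slide as a random block, 190 on the 3 shared slides and 524 with array weights, and 237 to 450 with 1 array left out. In XY- alone the counts were 530, 176 and 448, and 207 to 349. The interaction with sex chromosomes had 0 calls under each alternative. Without the filter on dim probes 806 of 25697 probes had an unadjusted p under 0.05 in limma. Under the other alternatives 65 to 585 probes did. The interaction with Sry had 15 calls with all 60 arrays in the fit, 51 with slide as a random block, and 21 to 30 with 1 array left out. The causes were not tested. Of 90 named called genes, 65 kept call and direction under all 33 alternatives and none reversed. Slide as a fixed block lost 16. The alternative without the 4 arrays of slide 8 (906 calls) was chosen after seeing the data. Probes near background have differences that the array's floor limits.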
